A study of Mus musculus with 6 samples.

Results

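The heat shock proteins and endoplasmic reticulum (ER) chaperones were taken as the genes whose symbol in the array's probe annotation begins with Hspa, Hspb, Hspd, Hspe, Hsp90, Dnaja, Dnajb, Dnajc or Pdia and a number, together with Hsph1, Sdf2l1, Hyou1, Calr, Canx, Creld2, Manf and Herpud1. This gave 82 genes of the 18193 that a probe set named alone, and 73 of the 82 were bright enough to test. Hsp90ab1 and Dnajc19 had no probe set naming them alone and were not analysed here. Whole epididymal fat pads came from 6 C57BL/6 mice aged 8 weeks, with 1 Affymetrix array for each mouse. In 3 mice, called CNOT3KO, a Cre recombinase under the adipocyte promoter of adiponectin had deleted Cnot3, a subunit of the CCR4-NOT complex that removes poly(A) tails from mRNA. The other 3 mice were wild type (WT), and whether they carried a floxed allele or Cre is not given in the sources used here. Each sample is labelled as a separate mouse.

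Molecular chaperones hold unfolded proteins in solution and help them fold. In the cytosol HSP70 proteins bind exposed stretches of a protein in a cycle driven by ATP, J-domain proteins (the Dnaj genes) bring them their clients and trigger that cycle, HSP110 proteins reset it, and small heat shock proteins hold clients without ATP. The ER has its own set, with the HSP70 protein BiP (Hspa5), the HSP90 protein GRP94 (Hsp90b1), the lectins calnexin and calreticulin, and the protein disulfide isomerases, and its genes are known to be induced by the unfolded protein response. In fat, adipocytes secrete large amounts of protein, adiponectin and leptin among them, through this ER machinery.

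The question was which transcripts change when adipocytes lose Cnot3. Median signals of the 6 arrays lay between 82.1 and 92.9. Cnot3 itself measured 301 ± 7.02 in WT against 201 ± 25.6 in CNOT3KO mice (SD, n = 3 each), a log2 difference of -0.54 (limma adjusted p = 0.0131). Marker genes of other cell types differed with genotype. Of 18 macrophage markers, 16 were higher in CNOT3KO, and the summed signal of the 18 lay between 29187 and 35425 in WT mice and between 64987 and 99355 in CNOT3KO mice. Of those higher, Marco had a WT mean of 12.5 and was bright enough to test only through the CNOT3KO mice, at 99.7. Cd163 did not pass, at a log2 difference of -0.71, with every CNOT3KO mouse below every WT mouse. Of 16 endothelial markers, 15 were lower (25309 to 25372 against 9501 to 10747). Of 16 adipocyte markers, 1 was higher and 5 were lower, with overlapping sums of 242417 to 303397 and 220529 to 268927. Adipoq was bright in both groups, at 28794 in WT and 26934 in CNOT3KO. Lep, which encodes leptin, was lower, at 10667 in WT and 4489 in CNOT3KO (log2 difference -1.25, limma adjusted p = 8.89e-05). The part of these shifts in the chaperone results below was not tested, except where a value is given, and in a whole tissue fewer cells of a type and less RNA per cell cannot be told apart.

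Chaperone genes moved in both directions. At an adjusted p under 0.05 (limma, Benjamini-Hochberg over all 12769 tested genes), 24 of the 73 tested members were higher in CNOT3KO and 9 were lower, and 40 did not pass. These 33 calls make up 45.2% of the members, beside 40.1% of all tested genes, a share close to the background. By direction, 32.9% of members were higher, beside 23.2% of all genes, and 12.3% were lower, beside 16.9%. The median log2 difference, CNOT3KO minus WT, was 0.090 over the members and 0.024 over all tested genes. Of the calls, 6 higher and 2 lower reached 2-fold, beside 6.49% and 3.33% of all genes. The signals of the groups did not overlap for 37 of the 73 members, beside 51.7% of all genes.

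The direction of the balance rests in part on how the arrays are scaled. Over all genes the calls split into 2959 higher and 2156 lower, and into 2318 higher and 2800 lower once every array was centred on its median over tested genes. With that centring 20 members were higher and 13 lower, and the members' median was -0.0072, beside -0.073 for all genes. The 9 members too dim to test were Dnajb3, Dnajb7, Dnajc22, Dnajc5b, Dnajc5g, Hspa1l, Hspb3, Hspb9 and Pdia2.

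**Figure D1:**
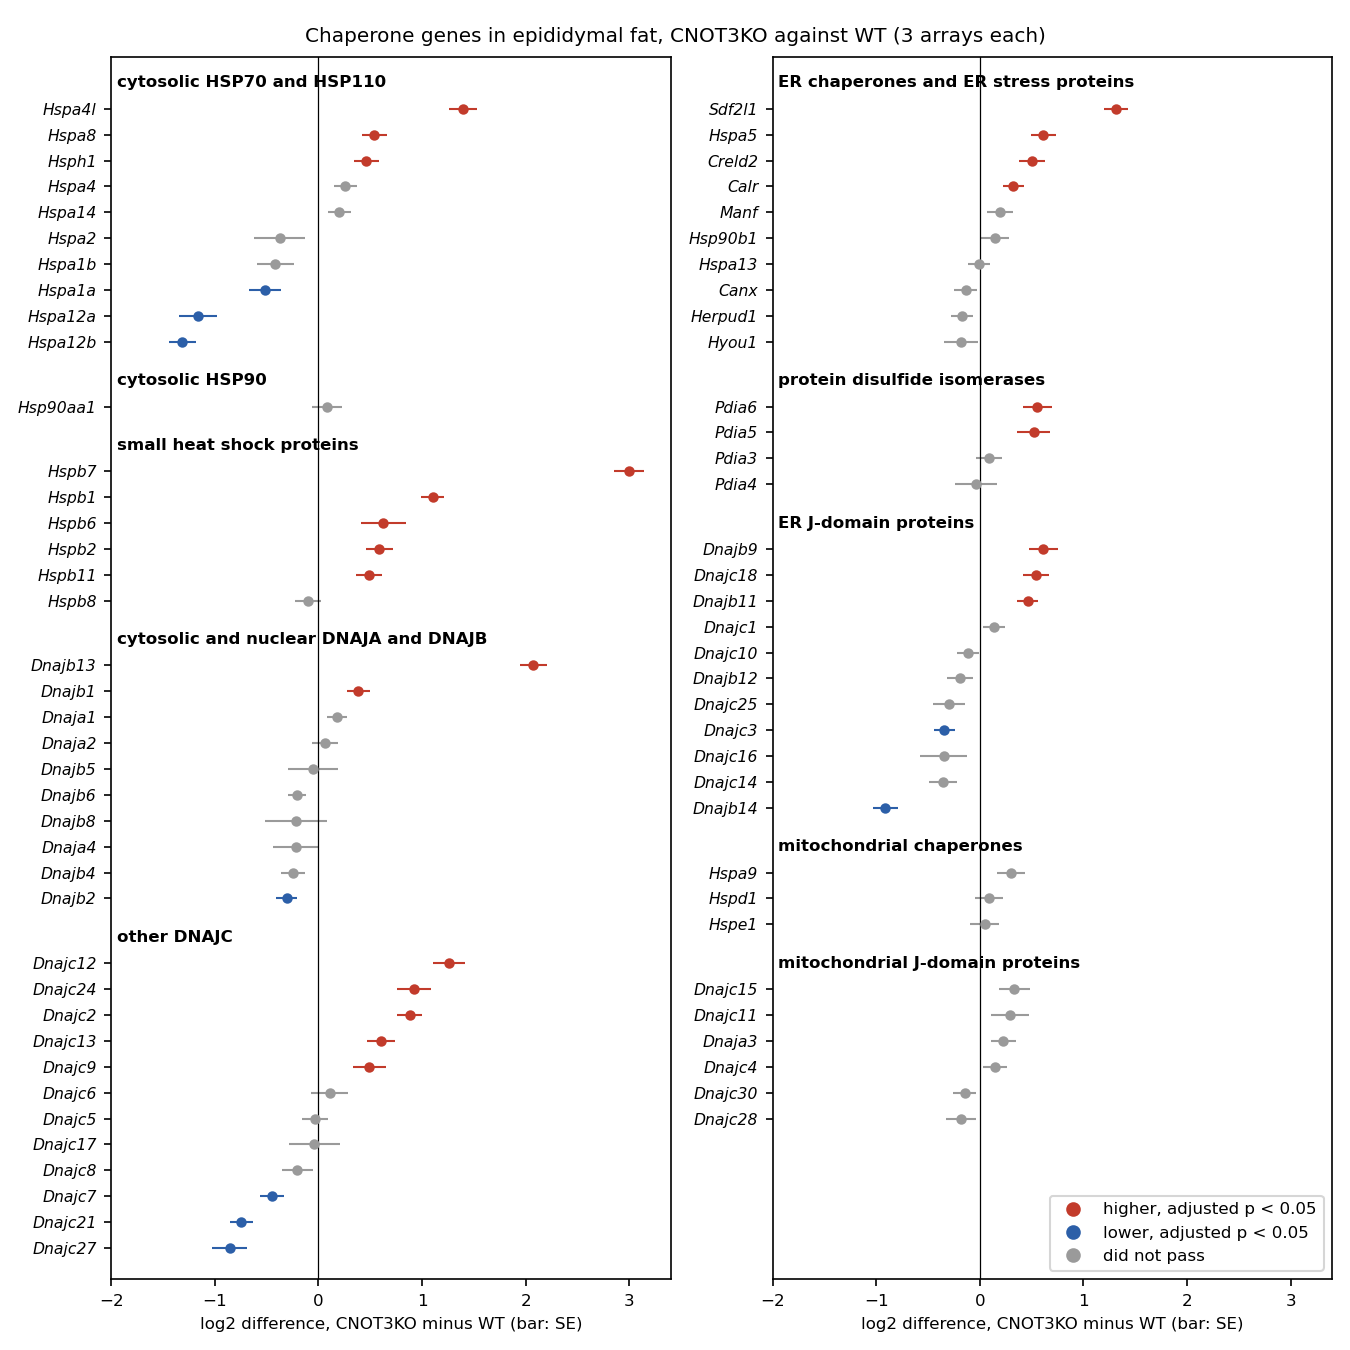
Log2 difference, CNOT3KO minus WT, of each of the 73 tested chaperone genes, grouped by role, from 3 arrays in each group; points are the limma estimates and bars their standard errors. Hspb7 stands farthest to the right at 2.99 and Hspa12b farthest to the left at -1.31, and no mitochondrial gene passed the test.

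Among the 10 tested genes of the cytosolic HSP70 and HSP110 families, 3 were higher (Hspa4l, Hspa8 and Hsph1) and 3 were lower (Hspa12b, Hspa12a and Hspa1a). These calls make up 60% of the group, beside 40.1% of all tested genes. The 3 that were higher are a constitutive HSP70 and a pair of HSP110 proteins, which exchange the nucleotide of HSP70. The 3 that were lower are both members of the atypical HSPA12 branch and a stress-inducible HSP70.

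Hspa4l, an HSP110 protein, had signals of 332, 361 and 375 in the WT mice and 884, 911 and 1139 in the CNOT3KO mice. Every CNOT3KO mouse lay above every WT mouse, 2.63 times the WT level on the log2(signal + 22.5) scale (log2 difference 1.40, SE 0.13, limma adjusted p = 6.55e-05). Folds below are also on that scale and are not ratios of the printed signals. Its 5 tested probe sets did not all move together, as described with the probe sets below, and the mean of all of them differed by 0.26 and did not pass. Hsph1, the other HSP110 protein, gave 921, 812 and 699 in the WT mice and 1082, 1130 and 1140 in the CNOT3KO mice (log2 difference 0.46, SE 0.12, limma adjusted p = 0.0142). Its groups did not overlap and its CNOT3KO mice lay close together, but the call was lost when arrays were centred on ribosomal protein genes. Hspa4, the third HSP110 gene, had groups that did not overlap and a log2 difference of 0.26 that missed the threshold (limma adjusted p = 0.0935).

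Hspa8 encodes HSC70, the constitutive HSP70 of the cytosol. Its signals were 14504, 12766 and 15695 in the WT mice and 18236, 21921 and 22354 in the CNOT3KO mice. The lowest CNOT3KO mouse lay above the highest WT mouse, with means of 14321 ± 1473 and 20837 ± 2263 (SD, n = 3 each; log2 difference 0.54, SE 0.12, limma adjusted p = 0.00643). The probe set used has the suffix of sets that can also detect related sequences. The Hspa8 probe set without such a suffix gave -0.56 and did not pass. It is far dimmer, at 370 ± 110 in WT and 243 ± 66.4 in CNOT3KO (SD, n = 3 each). The remaining sets, with WT means of 11183 and 4894, gave 0.28 and 0.58 and did not pass either. Of the 4 tested Hspa8 probe sets 1 was called, and the call was also lost with the mean of all of them. Hspa14, a ribosome-associated HSP70, and Hspa2, best known from testis, did not pass, with log2 differences of 0.20 and -0.37.

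The stress-inducible HSP70 genes Hspa1a and Hspa1b lie side by side and are almost identical, so a probe set may detect both. Hspa1a measured 487, 453 and 351 in the WT mice and 318, 306 and 255 in the CNOT3KO mice. The WT mice spread over a range wider than the gap between the groups, which do not overlap (log2 difference -0.51, SE 0.16, limma adjusted p = 0.0263). That call was lost without WT mouse 1, WT mouse 2 or CNOT3KO mouse 3, with log2 differences of -0.47 to -0.42 and limma adjusted p of 0.0752 to 0.0890, and when arrays were centred on ribosomal protein genes. Hspa1b measured 1552, 2133 and 1901 in the WT mice and 1350, 1779 and 1088 in the CNOT3KO mice, and its groups overlapped (log2 difference -0.42, SE 0.18, limma adjusted p = 0.0957). Without CNOT3KO mouse 2 Hspa1b passed, at -0.60 (limma adjusted p = 0.0192). Hspa1b also passed with median centring, with array weights, and with a probe set lacking the suffixes _x_at, _s_at and _a_at. The log2 differences of its 3 probe sets were alike, between -0.42 and -0.38.

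Hspa12b and Hspa12a are distant relatives of HSP70 with an atypical ATP-binding domain, and Hspa12b is known for its expression in endothelial cells. Hspa12b had signals of 517, 566 and 516 in the WT mice and 182, 224 and 198 in the CNOT3KO mice. All 3 CNOT3KO mice lay well below the WT mice, at 0.402 times their level (log2 difference -1.31, SE 0.13, limma adjusted p = 8.89e-05). Its fall came with that of the endothelial markers, 15 of 16 of which were lower; among them Cdh5, a junction protein of endothelium, differed by -1.56 and Pecam1 by -0.62, and their part in it was not tested. Hspa12a measured 1083, 1229 and 944 in the WT mice and 519, 575 and 346 in the CNOT3KO mice (log2 difference -1.16, SE 0.18, limma adjusted p = 0.00103). Its groups did not overlap, and the mean of all its probe sets differed by -0.39 and did not pass, with 1 of them at 0.051.

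Heat shock factor, the activator of the cytosolic heat shock response, binds repeats of GAA in alternating orientation. Windows of 300 bases, from 250 before to 50 after a transcription start, were available for 67 of the 82 members (84 windows, RefSeq, GRCm38.p6). They were searched on both strands for GAANNTTC and TTCNNGAA, which can overlap each other. Either form was found in 21.4% of the members' windows and in 15.1% of all 32851 windows. The 14 tested members with a match held 3 higher (Hspb1, Hspb6 and Hsph1), 2 lower (Hspa1a and Dnajc27) and 9 that did not pass. Of all tested genes, 23.2% were higher and 16.9% lower. The stretches below show matches upstream of the start in members with different outcomes, with the matched bases in capitals, each read 5′ to 3′ in the direction of the gene. They lie at chr5:135887777-135887854 for Hspb1 (plus strand), chr5:149636337-149636394 for Hsph1 (minus strand), chr7:30553156-30553213 for Hspb6 (plus strand), chr17:34972228-34972285 for Hspa1a (minus strand), chr17:34959310-34959367 for Hspa1b (minus strand) and chr1:55088034-55088101 for Hspe1 (plus strand).
Hspb1: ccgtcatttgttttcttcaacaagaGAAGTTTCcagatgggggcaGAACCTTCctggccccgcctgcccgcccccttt
Hsph1: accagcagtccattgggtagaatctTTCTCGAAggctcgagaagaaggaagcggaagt
Hspb6: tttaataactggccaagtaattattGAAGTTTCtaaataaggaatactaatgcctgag
Hspa1a: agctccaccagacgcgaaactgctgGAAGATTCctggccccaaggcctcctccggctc
Hspa1b: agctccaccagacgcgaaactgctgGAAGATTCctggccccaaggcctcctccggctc
Hspe1: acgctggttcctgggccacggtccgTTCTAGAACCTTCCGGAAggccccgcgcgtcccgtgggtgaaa
Hspa1a and Hspa1b share 247 of the 250 bases before the start, and the stretch printed is the same in both. Hspe1, whose signal did not pass the test, has 3 overlapping matches upstream, and Hspb1, which was higher, has 2. Hsph1, which was also higher, has further matches after the start that are not printed. A match is a run of letters and was not tested as a binding site.

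Cytosolic HSP90 was represented by Hsp90aa1, its stress-inducible form. The probe set used gave 9909, 10042 and 8104 in the WT mice and 11008, 10864 and 8039 in the CNOT3KO mice. These groups overlapped, and the difference did not pass (log2 difference 0.084, SE 0.14, limma adjusted p = 0.677). A pair of its other probe sets, dimmer than the one used, were higher in CNOT3KO, at 0.42 and 0.50 (limma adjusted p over all probe sets, 0.0375 and 0.0356), so the probe sets of Hsp90aa1 do not give one answer.

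Genes named as small heat shock proteins were the role group with the largest share of calls. Of 6 tested, 5 (83.3%) were higher in CNOT3KO, beside 23.2% of all genes, and none lower, with a median log2 difference of 0.61. Each of these calls meets an unadjusted p under 0.05 by construction, and that looser limma threshold added no further gene. Over all 12769 tested genes it found 3506 higher and 2700 lower. The group is small and goes by gene symbol, so it counts Hspb11, known as an intraflagellar transport protein. Of the 5 calls, 1 (Hspb6) was lost under quantile normalization and under both centrings. The Hspb11 call was lost without CNOT3KO mouse 1 and with the mean of its probe sets.

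Hspb7, a small heat shock protein best known from heart and skeletal muscle, showed the largest change of the tested members. Its signals were 406, 326 and 317 in the WT mice and 3438, 2536 and 2880 in the CNOT3KO mice. The CNOT3KO mice stood at 7.97 times the WT level, far outside the spread of either group (log2 difference 2.99, SE 0.14, limma adjusted p = 3.52e-06). A further probe set was also called higher, at 143 ± 36.3 in WT and 905 ± 225 in CNOT3KO (SD, n = 3 each). The third had a WT mean under the filter of 51.6 and passed that filter through the CNOT3KO mice, at 258 ± 113 (SD, n = 3), so it gives no measured fold. Of 6 skeletal muscle markers tested beside it, 1 (Mb) was higher, 0 were lower and Acta1 measured 803 in WT and 452 in CNOT3KO. Mb likewise had a WT mean under the filter, at 42.0, and passed it through the CNOT3KO mice, at 98.1. Its groups overlapped. The summed signals of the 10 listed muscle markers overlapped, at 848 to 1452 in WT and 784 to 971 in CNOT3KO. Of 11 tested smooth muscle and pericyte markers, 2 were higher (Cspg4 and Des) and 6 lower.

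Hspb1 encodes HSP27, an abundant small heat shock protein that binds actin and unfolded clients. Its signals were 3936, 4339 and 4413 in the WT mice and 9130, 8039 and 10249 in the CNOT3KO mice, so that the lowest CNOT3KO mouse was far above the highest WT mouse. Means were 4229 ± 257 and 9139 ± 1105 (SD, n = 3 each), 2.15 times the WT level (log2 difference 1.10, SE 0.11, limma adjusted p = 0.000105). The other Hspb1 probe set was higher by 1.21.

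Hspb6, also called HSP20, had 657, 364 and 377 in the WT mice and 797, 600 and 737 in the CNOT3KO mice. WT mouse 1 lay above CNOT3KO mouse 2, so the groups overlapped (log2 difference 0.63, SE 0.21, limma adjusted p = 0.0416). This call was lost without WT mouse 2, WT mouse 3, CNOT3KO mouse 1 or CNOT3KO mouse 3, at log2 differences of 0.48 to 0.60 and limma adjusted p from 0.0922 upwards, and under 6 other settings. Hspb2, which sits in a complex with other small heat shock proteins in muscle, was higher by 0.59, at 259 ± 26.5 against 400 ± 17.5 (SD, n = 3 each; limma adjusted p = 0.00631). Hspb11, known as the intraflagellar transport protein IFT25, was higher by 0.49 (limma adjusted p = 0.0140). Without CNOT3KO mouse 1 the Hspb11 difference was 0.38 and did not pass (limma adjusted p = 0.0694), nor did the mean of its probe sets, at 0.28. Hspb8, which works with the co-chaperone BAG3 in autophagy of misfolded proteins, gave overlapping groups and a difference of -0.1.

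**Figure D2:**
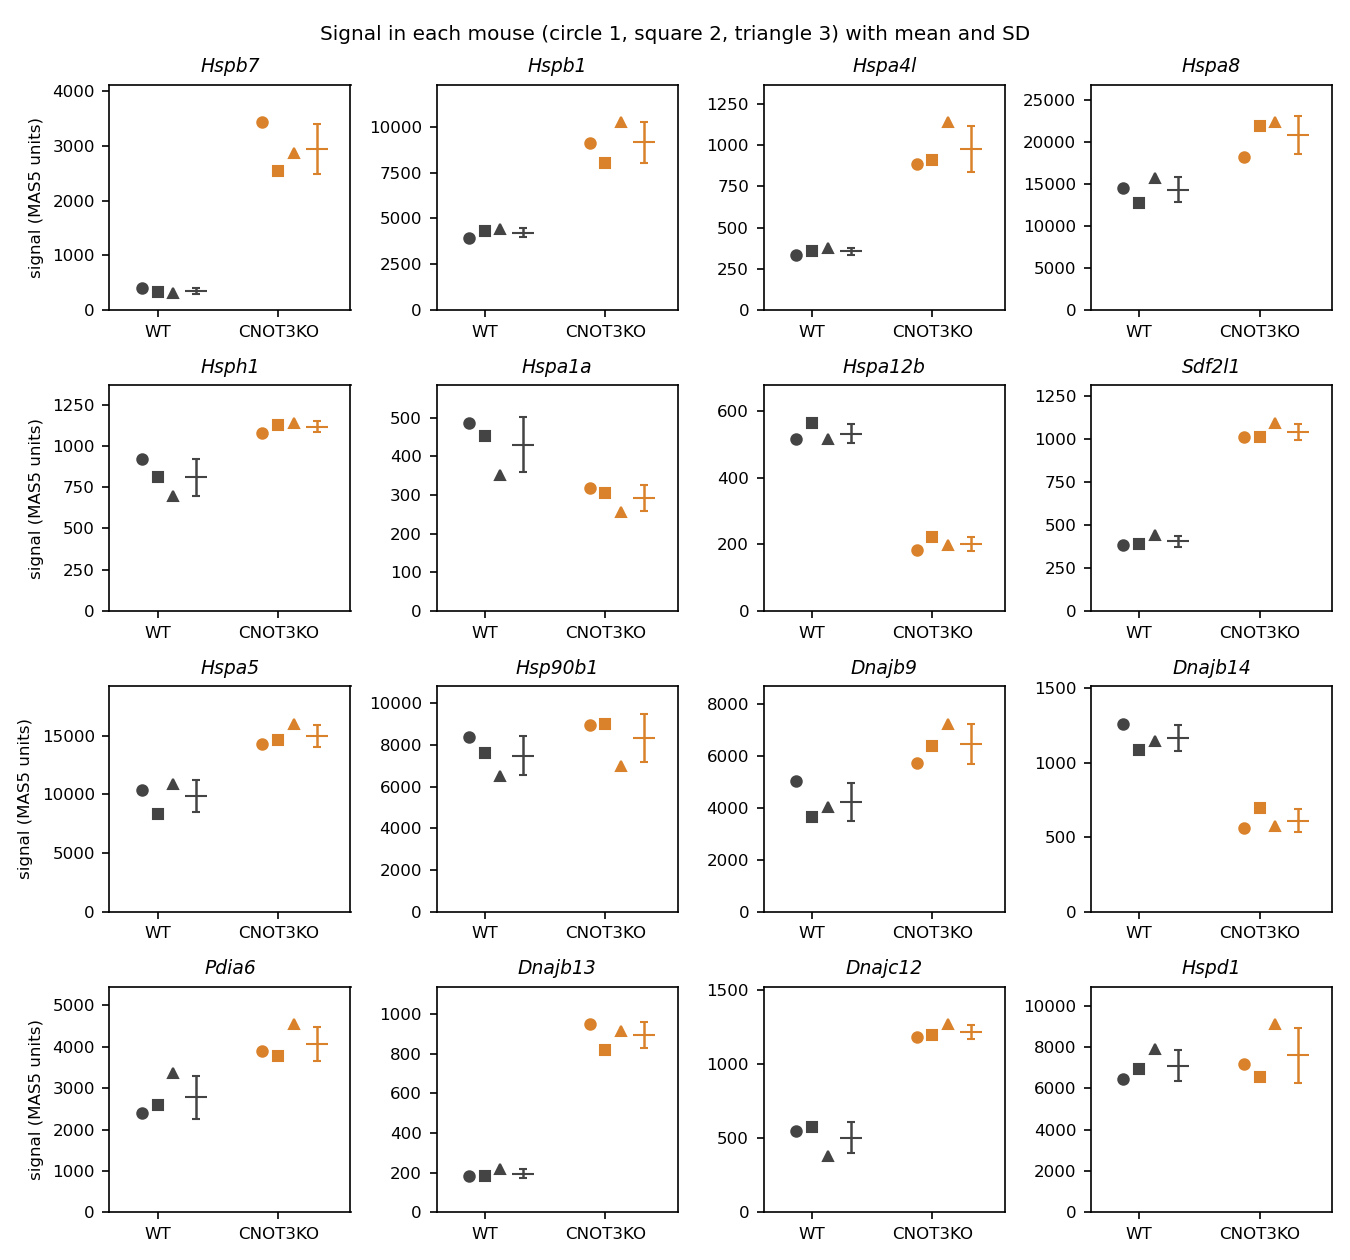
Signal (MAS5 units, linear axis from 0) of 16 chaperone genes in each of the 3 WT and 3 CNOT3KO mice, with the group mean and SD beside the points. In Hspb7, Hspb1, Hspa4l, Sdf2l1, Dnajb13, Dnajc12, Hspa12b and Dnajb14 the groups lie far apart, in Hspa8, Hsph1, Hspa1a, Hspa5, Dnajb9 and Pdia6 they lie close without overlapping, and in Hsp90b1 and Hspd1 they overlap.

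Of the 10 tested J-domain proteins of the DNAJA and DNAJB classes in cytosol and nucleus, 2 were higher and 1 was lower, and 1 and 3 once arrays were median-centred. Before that centring 30% were called, beside 40.1% of all tested genes. Dnajb13, known from sperm flagella and motile cilia, had 184, 182 and 221 in the WT mice and 949, 819 and 916 in the CNOT3KO mice. The CNOT3KO signals were 4.21 times those of WT and did not come near them (log2 difference 2.07, SE 0.13, limma adjusted p = 1.08e-05). Because the pad lies against the epididymis, markers of its epithelium were examined: 6 of 8 were too dim to test, Rnase10 was higher and Spink2 lower, and their summed signals overlapped (343 to 395 in WT, 317 to 365 in CNOT3KO). Dnajb13 has 1 probe set on the array, so no other measurement bears on it.

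Dnajb1, the main HSP40 partner of inducible HSP70, measured 1637, 1585 and 1917 in the WT mice and 2272, 2139 and 2305 in the CNOT3KO mice. Its groups did not overlap (log2 difference 0.39, SE 0.11, limma adjusted p = 0.0179), and its other probe set was higher by 0.69. Without WT mouse 2 or CNOT3KO mouse 1 the Dnajb1 call was lost, at 0.33 to 0.37 (limma adjusted p 0.0696 to 0.0757), as it was when arrays were median-centred. Dnajb2, a J-domain protein with ubiquitin-interacting motifs, measured 1294, 1225 and 1166 in the WT mice and 1049, 937 and 980 in the CNOT3KO mice (log2 difference -0.31, SE 0.10, limma adjusted p = 0.0402). That small difference lost its call when any 1 of the 6 mice was left out, with log2 differences of -0.35 to -0.27 and limma adjusted p of 0.0528 to 0.105. It was also lost with ribosomal centring and without the variance trend. The abundant co-chaperones of HSP70, Dnaja1 and Dnaja2, did not pass, at 0.18 and 0.063, nor did Dnajb6, which suppresses aggregation, at -0.21, although its groups did not overlap. Dnajb6 passed when arrays were median-centred, at -0.30, as did Dnajb4 at -0.34. Dnaja4, Dnajb5 and Dnajb8 gave -0.22, -0.052 and -0.21 with overlapping groups.

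The remaining DNAJC proteins have specialised tasks, and 5 of 12 tested were higher and 3 lower. The share called was 66.7% in this small group, beside 40.1% of all tested genes. Dnajc12, a co-chaperone of the aromatic amino acid hydroxylases, had 550, 575 and 382 in the WT mice and 1185, 1200 and 1268 in the CNOT3KO mice. The CNOT3KO mice were tightly grouped above all WT mice, at 2.4 times their level (log2 difference 1.26, SE 0.15, limma adjusted p = 0.000249). Dnajc24, which takes part in the diphthamide modification of elongation factor 2, gave 354, 401 and 465 in the WT mice and 815, 639 and 936 in the CNOT3KO mice (log2 difference 0.92, SE 0.16, limma adjusted p = 0.00174). Dnajc2, a J-domain protein of the ribosome-associated complex, gave 981, 736 and 824 in the WT mice and 1529, 1597 and 1581 in the CNOT3KO mice (log2 difference 0.88, SE 0.12, limma adjusted p = 0.000499). In both genes every CNOT3KO mouse exceeded every WT mouse, and in both all tested probe sets were higher.

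Dnajc13, an endosomal J-domain protein, was higher by 0.60 (limma adjusted p = 0.00568), while the mean of both its probe sets differed by 0.33 and did not pass. Dnajc9, which also binds histones, was higher by 0.49 (limma adjusted p = 0.0357). This call was lost without any 1 mouse except CNOT3KO mouse 2, at 0.37 to 0.54 and limma adjusted p of 0.0544 to 0.110, and under both centrings and without the filter. Lower were Dnajc27, which carries a small GTPase domain, Dnajc21, which acts in the making of the large ribosomal subunit, and Dnajc7, which binds both HSP70 and HSP90. Dnajc27 fell from 261 ± 16.1 to 135 ± 28.9, Dnajc21 from 903 ± 46.3 to 530 ± 29.2 and Dnajc7 from 978 ± 65.3 to 712 ± 57.1 (SD, n = 3 each). The log2 differences were -0.86, -0.74 and -0.45 (limma adjusted p 0.00353, 0.000676 and 0.0116), with no overlap between groups. The other 4 DNAJC genes, among them the synaptic vesicle chaperone Dnajc5 and the clathrin uncoating factor Dnajc6, overlapped between groups and ranged from -0.20 to 0.11. Dnajc7 did not pass when arrays were centred on ribosomal protein genes, and Dnajc27 did not with the mean of its probe sets, at -0.33.

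Proteins of the ER made up 25 of the tested members, of which 9 were higher and 2 lower, with a median of 0.087. The share called, 44%, lies near the 40.1% of all genes, and with median centring the counts were 8 and 3 and the median was -0.010. Within the 10 chaperones and stress proteins of the ER lumen and membrane, 4 were higher, none lower and 6 did not pass. An unadjusted p under 0.05 in limma, which every call meets by construction, added no further gene. The members higher were Sdf2l1, Hspa5, Creld2 and Calr.

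Hspa5 encodes BiP, the HSP70 protein of the ER that binds nascent chains and holds the stress sensors inactive. Its signals were 10347, 8317 and 10888 in the WT mice and 14298, 14593 and 16024 in the CNOT3KO mice. The groups did not overlap, with means of 9851 ± 1355 and 14972 ± 923 (SD, n = 3 each), 1.53 times the WT level (log2 difference 0.61, SE 0.12, limma adjusted p = 0.00345). Of its other probe sets, 1 was higher by 0.72 and the dimmest differed by 0.15 and did not pass.

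Sdf2l1, a partner of BiP and its J-domain proteins, changed most within the ER. Its signals were 383, 388 and 440 in the WT mice and 1010, 1009 and 1091 in the CNOT3KO mice. The WT mice and the CNOT3KO mice each spanned a narrow range far from the other, a ratio of 2.49 (log2 difference 1.32, SE 0.11, limma adjusted p = 4.22e-05). Creld2, a secreted and ER-resident protein induced by ER stress, gave 605, 618 and 723 in the WT mice and 838, 939 and 1006 in the CNOT3KO mice (log2 difference 0.50, SE 0.12, limma adjusted p = 0.00961), again without overlap.

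Calreticulin (Calr) and calnexin (Canx) are the paired lectins that retain glycoproteins for folding. Calr measured 6075, 5836 and 6872 in the WT mice and 7408, 8264 and 7803 in the CNOT3KO mice (log2 difference 0.32, SE 0.10, limma adjusted p = 0.0316). All 3 of its probe sets were higher, at 0.32 to 0.36, but the call was lost without WT mouse 1, WT mouse 2 or any CNOT3KO mouse (log2 0.27 to 0.36, limma adjusted p 0.0562 to 0.125), when arrays were median-centred, and without the trend. Canx measured 8019, 7901 and 7281 in the WT mice and 6505, 7920 and 6718 in the CNOT3KO mice, and CNOT3KO mouse 2 lay among the WT mice (log2 difference -0.14, SE 0.11, limma adjusted p = 0.342).

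Hsp90b1 encodes GRP94, the HSP90 of the ER. Its signals of 8370, 7603 and 6498 in the WT mice and 8961, 9021 and 6980 in the CNOT3KO mice overlapped (log2 difference 0.15, SE 0.14, limma adjusted p = 0.418), since CNOT3KO mouse 3 read lower than WT mouse 1 and WT mouse 2. Hyou1, the large HSP110-like exchange factor of BiP, gave 784, 571 and 742 in the WT mice and 528, 730 and 583 in the CNOT3KO mice, with the groups interleaved (log2 difference -0.18, SE 0.16, limma adjusted p = 0.402). The secreted ER stress protein Manf gave 1946, 1890 and 2308 in the WT mice and 2081, 2312 and 2676 in the CNOT3KO mice (log2 difference 0.20, SE 0.13, limma adjusted p = 0.244), and its groups also overlapped. Herpud1, a membrane protein of ER-associated degradation, gave 2031, 2146 and 2127 in the WT mice and 2003, 1889 and 1704 in the CNOT3KO mice (log2 difference -0.17, SE 0.10, limma adjusted p = 0.209). Its CNOT3KO mice lay just below the lowest WT mouse. Hspa13, a microsomal HSP70, gave -0.0065 (SE 0.10) and did not pass.

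Many ER chaperone promoters are known to hold the ER stress element, CCAAT and CCACG separated by 9 bases, the site of ATF6 and XBP1 together with NF-Y. In the same RefSeq windows (GRCm38.p6, both strands) it occurred in 39 of 32851 windows, 0.119%, and in 7 of 84 windows of members, 8.33%. These 7 genes were Hspa5, Pdia6, Creld2 and Calr, which were higher, Dnajc3, which was lower, and Hsp90b1 and Canx, which did not pass. Their median log2 difference was 0.32, beside 0.07 for the 60 tested members with a window. A form with ATTGG and CCACG separated by 1 base, searched after the values were seen, occurred in 12 windows of all (0.0365%) and in a pair of members, Herpud1 upstream and Dnajb11 after the start. Shown are the matches with 25 bases on either side; the capitals mark the element with the bases between its ends. In Creld2 and Calr it runs on the other strand and reads CGTGG, 9 bases, ATTGG; Hsp90b1 holds 1 match in each orientation. They lie at chr2:34772000-34772068 for Hspa5 (plus strand), chr12:17266466-17266534 for Pdia6 (plus strand), chr15:88819495-88819563 for Creld2 (plus strand), chr8:84847050-84847118 for Calr (minus strand), chr14:118937802-118937870 for Dnajc3 (plus strand), chr10:86705508-86705681 for Hsp90b1 (minus strand), chr11:50325775-50325843 for Canx (minus strand) and chr8:94386352-94386412 for Herpud1 (plus strand), each read in the direction of the gene.
Hspa5: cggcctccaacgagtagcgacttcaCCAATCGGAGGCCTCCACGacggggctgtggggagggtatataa
Pdia6: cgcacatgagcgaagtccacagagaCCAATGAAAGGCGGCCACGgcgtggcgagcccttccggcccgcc
Creld2: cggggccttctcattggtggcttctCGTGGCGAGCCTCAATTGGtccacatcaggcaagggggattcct
Calr: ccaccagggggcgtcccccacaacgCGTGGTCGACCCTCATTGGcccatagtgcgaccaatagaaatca
Dnajc3: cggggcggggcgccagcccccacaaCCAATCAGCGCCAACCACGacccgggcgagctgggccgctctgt
Hsp90b1: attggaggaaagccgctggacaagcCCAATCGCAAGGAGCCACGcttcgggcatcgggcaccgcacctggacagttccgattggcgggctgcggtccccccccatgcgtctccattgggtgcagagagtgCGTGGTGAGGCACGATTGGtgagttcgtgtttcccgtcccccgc
Canx: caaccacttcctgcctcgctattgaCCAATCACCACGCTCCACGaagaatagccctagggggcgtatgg
Herpud1: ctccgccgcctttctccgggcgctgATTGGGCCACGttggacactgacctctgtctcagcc
The element starts 65 bases before the transcription start in Hspa5, 98 in Pdia6, 126 in Creld2, 162 in Calr, 105 in Dnajc3 and 145 in Canx. Windows with it belonged to members that rose, that fell and that did not pass, and Sdf2l1 and Dnajb9, which rose, have windows without this run of letters.

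Protein disulfide isomerases make and rearrange the disulfide bonds of secreted proteins. Of the 4 tested, Pdia6 and Pdia5 were higher and Pdia3 and Pdia4 did not pass. Pdia6 measured 2389, 2586 and 3357 in the WT mice and 3884, 3769 and 4538 in the CNOT3KO mice; the lowest CNOT3KO mouse lay above the highest WT mouse (log2 difference 0.56, SE 0.14, limma adjusted p = 0.0113). Pdia5 measured 223, 222 and 266 in the WT mice and 389, 378 and 287 in the CNOT3KO mice, also without overlap (log2 difference 0.52, SE 0.16, limma adjusted p = 0.0256). Leaving out WT mouse 1, WT mouse 2, CNOT3KO mouse 1 or CNOT3KO mouse 2 lost the Pdia5 call (log2 0.44 to 0.48, limma adjusted p 0.0674 to 0.105).

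Pdia3, the isomerase that works with calnexin and calreticulin on glycoproteins, gave 3768, 3781 and 4411 in the WT mice and 4070, 3778 and 4900 in the CNOT3KO mice (log2 difference 0.087, SE 0.12, limma adjusted p = 0.611). Pdia4 gave 1072, 1059 and 1805 in the WT mice and 1456, 1184 and 1100 in the CNOT3KO mice (log2 difference -0.038, SE 0.20, limma adjusted p = 0.899). Both had overlapping groups, and in Pdia4 a single bright WT mouse widened the spread.

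Some J-domain proteins of the ER bring clients to BiP, while in others the J-domain faces the cytosol. Of the 11 tested, 3 were higher and 2 lower, so 45.5% were called, beside 40.1% of all tested genes. Dnajb9, which sends misfolded proteins to degradation and is known as a target of XBP1, had 5026, 3627 and 4022 in the WT mice and 5702, 6376 and 7228 in the CNOT3KO mice. The groups did not overlap (log2 difference 0.61, SE 0.14, limma adjusted p = 0.00721). Dnajc18, an ER membrane J-domain protein, gave 265, 256 and 237 in the WT mice and 392, 368 and 376 in the CNOT3KO mice (log2 difference 0.54, SE 0.12, limma adjusted p = 0.00704), and Dnajb11, the soluble partner of BiP on nascent chains, was higher by 0.46, from 874 ± 34.8 to 1214 ± 52.2 (SD, n = 3 each; limma adjusted p = 0.00563). In both the groups lay apart.

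Dnajb14, an ER membrane protein whose J-domain faces the cytosol, had 1263, 1088 and 1148 in the WT mice and 563, 698 and 573 in the CNOT3KO mice. It fell to 0.532 times the WT level with all 3 CNOT3KO mice below all WT mice, and both of its probe sets were lower (log2 difference -0.91, SE 0.12, limma adjusted p = 0.000435). Its close relative Dnajb12 had groups that did not overlap and a difference of -0.19 that did not pass. Dnajc3, a BiP co-chaperone also described as an inhibitor of PERK, fell from 2486 ± 173 to 1954 ± 111 (SD, n = 3 each; log2 difference -0.34, SE 0.10, limma adjusted p = 0.0237). Without WT mouse 1 or CNOT3KO mouse 1 the Dnajc3 call was lost, at -0.30 to -0.29 (limma adjusted p 0.0677 to 0.107), as it was with the mean of its probe sets and with centring on ribosomal protein genes. Dnajc10, the ER reductase ERdj5, gave -0.11 and did not pass. Dnajc14, Dnajc16 and Dnajc25 had overlapping groups and gave -0.35, -0.35 and -0.30, while another probe set of Dnajc16 was called higher, as described with the probe sets below.

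None of the 9 tested mitochondrial members was called in either direction by limma, beside 40.1% of all tested genes. At an unadjusted p under 0.05 the counts were also 0 and 0, beside 3506 higher and 2700 lower of all 12769. Hspd1 and Hspe1 form the folding chamber of the matrix. Hspd1 gave 6460, 6934 and 7899 in the WT mice and 7189, 6531 and 9090 in the CNOT3KO mice and Hspe1 gave 4302, 4823 and 4739 in the WT mice and 4744, 3941 and 5778 in the CNOT3KO mice. In both genes the groups overlapped and CNOT3KO mouse 3 was the brightest array, with log2 differences of 0.09 and 0.045 (SE 0.14 and 0.14). Hspa9, the HSP70 of the matrix and of protein import, was 4175 ± 233 in WT and 5186 ± 903 in CNOT3KO (SD, n = 3 each), a difference of 0.30 with overlap. It passed only without CNOT3KO mouse 2, at 0.44 (limma adjusted p = 0.0184), and with array weights.

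Dnajc15, a J-domain protein of the inner membrane, had 7068, 4943 and 5706 in the WT mice and 7183, 6529 and 8499 in the CNOT3KO mice, and a single bright WT mouse brought the groups into overlap (log2 difference 0.33, SE 0.15, limma adjusted p = 0.104). Without WT mouse 1 it passed at 0.47, and Dnajc11, a J-domain protein tied to cristae organisation, at 0.50 (limma adjusted p = 0.0283 and 0.0304). Both also passed with array weights. Dnaja3, the HSP70 partner of the matrix, differed by 0.23 and the others, Dnajc4, Dnajc28 and Dnajc30, by 0.14, -0.18 and -0.15. The other mitochondrial chaperones and proteases, none of them members, held 9 higher and 2 lower of 14 tested, with a median of 0.45, and among the higher was Grpel1, the exchange factor of Hspa9 (3368 ± 228 against 5153 ± 684, SD, n = 3 each; log2 difference 0.60, limma adjusted p = 0.00308).

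**Figure D3:**
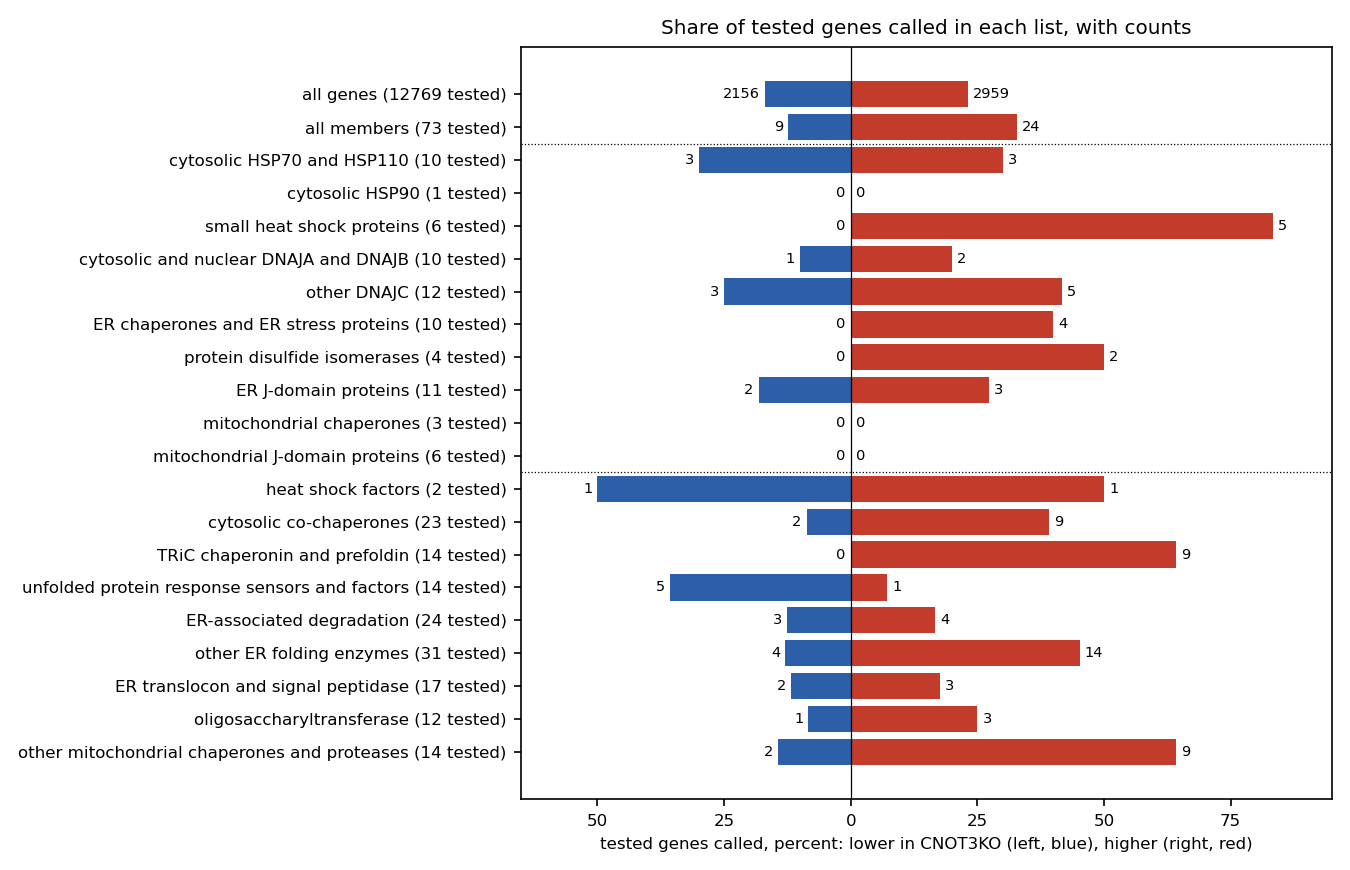
Percent of the tested genes of each list that were called lower (left, blue) or higher (right, red) in CNOT3KO at a limma adjusted p under 0.05, with the counts beside the bars; dotted lines separate all genes and all members, the members' role groups, and the other pathway lists. Small heat shock proteins show 5 higher of 6 and mitochondrial members 0 of 9. The list of unfolded protein response sensors and factors shows 5 lower and 1 higher of 14.

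The regulators of these genes were read from lists of other pathway genes, beside the 40.1% of all genes that were called. Of the heat shock factors and their binding protein, Hsf2 was higher (log2 difference 0.54, limma adjusted p = 0.0337) and Hsbp1, which restrains the factors, was lower (-0.34, limma adjusted p = 0.0178). Both calls depended on single mice: Hsf2 lost its call without WT mouse 1, WT mouse 2, CNOT3KO mouse 2 or CNOT3KO mouse 3 (0.47 to 0.52), and Hsbp1 without WT mouse 2, CNOT3KO mouse 1 or CNOT3KO mouse 2 (-0.36 to -0.29). Hsf1 had no probe set of its own here and was not analysed.

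The sensors and transcription factors of the unfolded protein response held 1 higher and 5 lower of 14, with a median of -0.18. The sensors Ern1 and Eif2ak3 did not pass, at -0.32 (limma adjusted p = 0.0503) and 0.16. Atf4, the translationally induced factor of the PERK branch, fell from 3881 ± 817 to 2750 ± 84.9 (SD, n = 3 each; log2 difference -0.47, limma adjusted p = 0.0240). Atf4 did not pass without WT mouse 2, WT mouse 3 or CNOT3KO mouse 1 (-0.51 to -0.31). Ddit3, its target CHOP, fell from 903 ± 107 to 622 ± 50.2 (SD, n = 3 each; -0.52, limma adjusted p = 0.00935), and Ppp1r15b, a phosphatase subunit that reverses PERK signalling, differed by -0.53 (limma adjusted p = 0.0131). Neither Ddit3 nor Ppp1r15b passed with the mean of its probe sets. Creb3l1, an ER-anchored factor, was the gene that was higher, by 0.72. Xbp1 and Atf6, whose activation acts on splicing and on cleavage that these signals do not report, did not pass, at -0.19 and 0.10, but Atf6 passed with the mean of its probe sets, at 0.53. With arrays centred on ribosomal protein genes the lower count was 2 in place of 5, and over all genes 1651 in place of 2156.

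Other folding enzymes of the ER were called often, with 14 higher and 4 lower of 31 and a median of 0.27. Among those higher were Fkbp11, a prolyl isomerase of secretory cells (108 ± 22.7 against 303 ± 21.8, SD, n = 3 each; 1.33), Sdf2, the relative of Sdf2l1 (0.97), and Fkbp7 (0.84). Fkbp11 and Derl3 are also known from plasma cells; of 6 tested B and plasma cell markers 1 was higher and 2 were lower, and the sums overlapped (1183 to 2352 in WT, 1320 to 2477 in CNOT3KO). ER-associated degradation genes held 4 higher and 3 lower of 24, against 4 and 6 with median centring and 4 and 1 with centring on ribosomal protein genes. Derl3 was higher by 1.26 and Derl1 lower, at -0.96, so these derlins, which belong to the channel machinery of that pathway, moved in opposite directions. The translocon list held 3 higher and 2 lower of 17 and the oligosaccharyltransferase list 3 higher and 1 lower of 12. Among the 3 higher of the translocon list, Ssr4 passed as lower, at -0.54, with probe sets lacking the suffixes _x_at, _s_at and _a_at (limma adjusted p = 0.0316).

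In the cytosol the TRiC chaperonin and prefoldin, which fold actin and tubulin, held 9 higher and 0 lower of 14, with a median of 0.38, and Cct3 was highest at 0.79. Median centring of the arrays left 3 of these calls and a median of 0.28. Co-chaperones of HSP70 and HSP90 held 9 higher and 2 lower of 23. Ahsa1, which stimulates the ATPase of HSP90, was higher by 0.79 (a call lost with the mean of its probe sets) and Bag6 by 0.73, while Bag1, an exchange factor of HSP70, was lower, at -0.73, as was St13, at -0.57.

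**Figure D4:**
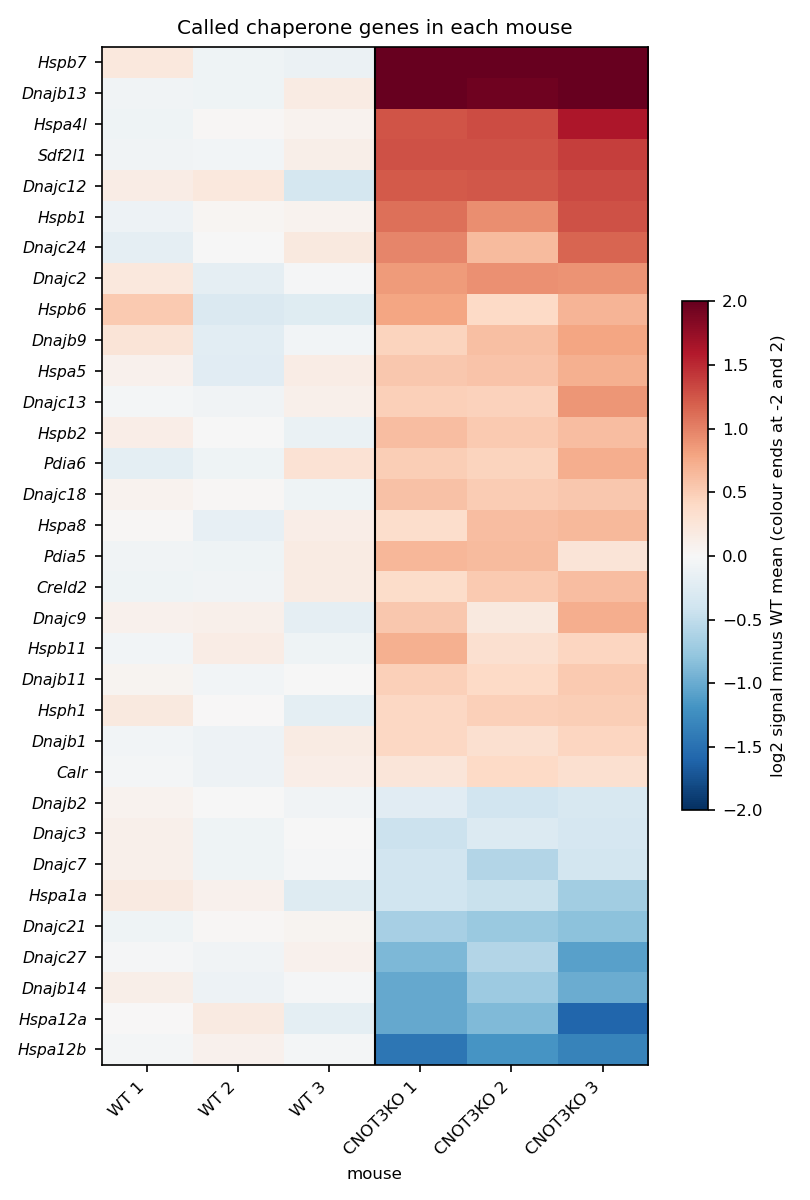
Log2 signal of the 33 called chaperone genes in each mouse, minus the mean of the 3 WT mice; red is above and blue below that mean, and colours end at -2 and 2. The 3 CNOT3KO columns are all red or all blue in each row, with Hspb7 and Dnajb13 at the red end and Hspa12a and Hspa12b deepest blue, and WT mouse 1 stands out in Hspb6.

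Of the 33 called members, 32 had groups that did not overlap, the exception being Hspb6; of the 5115 called genes in all, 5012 had groups that did not overlap, a like share. The calls of 17 of the 33 held under each of 19 alternative settings that kept the threshold: Hspb7, Dnajb13, Sdf2l1, Dnajc12, Hspb1, Dnajc24, Dnajc2, Dnajb9, Hspa5, Hspb2, Pdia6, Dnajc18, Creld2, Dnajb11, Hspa12b, Dnajb14 and Dnajc21. Among them Dnajb13, Sdf2l1, Dnajc12, Dnajb9, Hspb2, Creld2, Dnajb11 and Hspa12b have 1 probe set each. Settings that change the probe set left the signals of these genes as they were. At an adjusted p under 0.01 instead, 21 of the 33 calls remained, and of those 17 Pdia6 was lost (limma adjusted p = 0.0113). Calls that were lost when a mouse was left out were those of Calr, Dnajb1, Dnajb2, Dnajc3, Dnajc9, Hspa1a, Hspb11, Hspb6 and Pdia5, each with values given above. In turn Dnajc14 gained a call without WT mouse 3, at -0.50, and Dnajc16 without CNOT3KO mouse 1, at -0.61 (limma adjusted p = 0.0115 and 0.0361), although the other probe set of Dnajc16 was higher. Dnajc14 also gained a call with median centring, with the mean of its probe sets and with array weights.

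Several probe sets of a gene give repeated measurements of it on the same RNA. Of the 82 members, 46 had more than 1 tested probe set, and 17 of these were called. In 8 of the 17 all tested probe sets were called the same way when limma was run over all probe sets. Hspa4l had 2 probe sets higher, at 1.40 and 0.81, and 3 that did not pass, at -0.33, -0.31 and -0.26. Dnajc1, a J-domain protein of the ER membrane at the ribosome, was called both ways: the probe set used gave 0.14 and did not pass, another gave 0.46 higher and another -0.57 lower. In 7 members that were not called, another probe set was called (Dnaja1, Dnajb4, Dnajc1, Dnajc14, Dnajc16, Hsp90aa1 and Hspa13). Dnajb4, a J-domain protein of muscle and other tissues, gave -0.25 with the probe set used and -1.35 with a dimmer one. The probe sets of Dnajc16 went opposite ways, at -0.35 with the probe set used, which did not pass, and 0.76 with a dimmer one called higher (limma adjusted p = 0.0171 over all probe sets). Dnaja1 likewise gave 0.18 with the probe set used and -0.39 with one called lower.

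**Figure D5:**
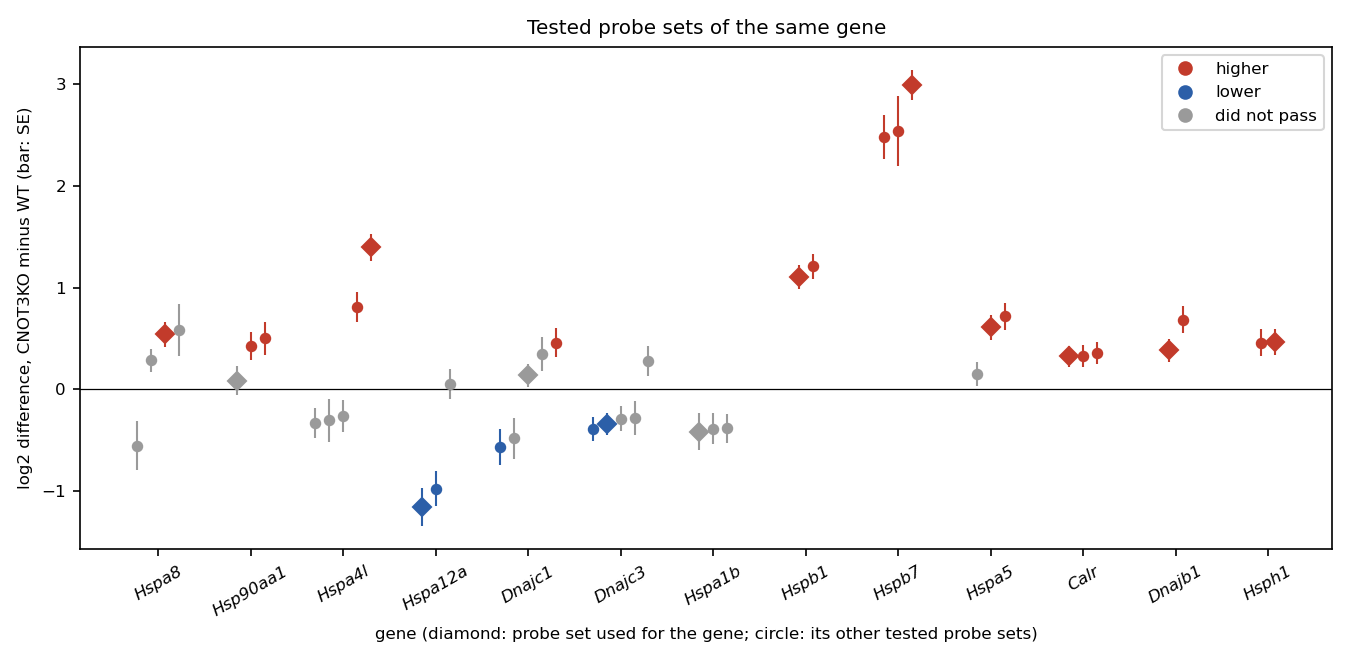
Log2 difference, CNOT3KO minus WT, of every tested probe set of 13 chaperone genes; diamonds mark the probe set used for the gene, circles the others, bars are standard errors and colours give the call. Probe sets of Hspb7, Hspb1, Calr, Dnajb1 and Hsph1 lie together, those of Hspa8, Hspa4l, Hspa12a and Dnajc1 fall on both sides of 0 or near it, and those of Hsp90aa1 differ in whether they passed.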

How the data were processed

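The authors deposited 1 intensity for each probe set and array on a linear scale. The program was MAS5 per the submitters' processing notes, with version and settings not stated in the sources used here. Means without the top and bottom 2% differed by at most 0.0711% between arrays. Of 45037 probe sets, 34945 name 1 gene, 932 several and 9160 none. The brightest single-gene probe set stood for each gene, genes with a mean signal under 51.6 (40th percentile) were not tested, and levels of different genes were not compared.

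limma 3.58.1 in R 4.3.3 (lmFit, eBayes with trend, two-sided) was run on log2(signal + 22.5), an offset at the 25th percentile, with Benjamini-Hochberg adjustment over 12769 genes and no block; the script was tested on simulated data. Fold changes on this scale understate those of dim genes. The number of arrays, 3 in each group, limits the precision, and the labels give no batch. Signals of each mouse are given for the called members with the 3 largest changes in each role group and for the best-known chaperones. Other genes named are Cnot3, the main regulators and those with the largest changes in each list, while Grpel1, Cdh5, St13 and probe sets that differ were picked after their values were seen. The members and lists were chosen with earlier results of these data known. Alternatives varied the offset, filter, scaling, probe set, variance model, array weights, replicate block and threshold, and left out each array. Promoter windows are RefSeq's (GRCm38.p6). Python 3.11.15, numpy 2.4.6, pandas 2.3.3 and matplotlib 3.10.9 were used.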

Additional observations from a re-analysis of the deposited data

How the results depend on the processing

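Members higher in CNOT3KO numbered 18 to 23, and members lower 6 to 9, when each mouse was left out in turn, beside 24 and 9. Over all genes the counts then ran from 2199 to 2676 higher and from 1556 to 1978 lower, beside 2959 and 2156. With arrays centred on ribosomal protein genes 21 members were higher and 5 lower, with 2386 genes higher and 1651 lower over all genes. These calls made up 35.6% of members, beside 31.6% of all genes. At an adjusted p under 0.01 also 5 members were lower, with 1895 genes higher and 1249 lower over all genes. The stricter threshold by its construction calls fewer, and the cause of the fall with ribosomal centring was not tested. Median centring turned the members' median from 0.090 to -0.0072 and that of the ER members from 0.087 to -0.010. For single genes that were called, a pair of alternatives reversed the sign. With the mean of all probe sets, the log2 difference of Ssr4, of the ER translocon list, was -0.19 and that of Clpx, a mitochondrial protease subunit, was -0.065. With probe sets without _x_at, _s_at or _a_at, the log2 difference of Hspa8 was -0.56, from its dimmest tested probe set, and did not pass (limma adjusted p = 0.0953). That of Ssr4 was -0.54 and passed as lower (limma adjusted p = 0.0316). Other probe sets of the gene enter there, and the cause was not tested. With the mouse number as a replicate block 23 members were higher and 8 lower, Dnajb2 and Dnajc9 losing their call, and 2910 genes were higher and 2182 lower over all genes. Deviations of same-numbered mice from their group means correlated at 0.074, 0.11 and 0.043 over 12769 genes, each the highest for its WT mouse, which is a hint from the data that the numbers pair the mice. The values are small, and deviations cancel out within each group, so the correlations are tied to one another. The labels name no shared litter or day, and the numbers were not taken as pairs. Array weights gave 28 members higher and 13 lower, with 3683 genes higher and 2932 lower over all genes. Dim genes, 5424 in all, were not tested, which limits what the arrays can show for 9 members.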
